A study of Homo sapiens with 2 samples.

Results

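The ephrins, semaphorins and SLITs are guidance cues, and the Eph receptors, plexins, neuropilins and ROBO receptors read them. Genes of these families were taken by their symbols (EPHA and EPHB, EFNA and EFNB, SEMA, PLXN, NRP, SLIT and ROBO) from the probe sets with 1 gene symbol, with the brightest probe set standing for each gene. This gave 59 of the 19775 genes measured, namely 21 ephrins and Eph receptors, 31 semaphorins, plexins and neuropilins, and 7 SLIT and ROBO genes. EPHB2 was not analysed here.

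HCC4006 is a human NSCLC cell line with an EGFR exon 19 deletion, labelled sensitive to erlotinib and wildtype in phenotype. HCC4006ER carries the same deletion and is labelled erlotinib resistant and EMT, and it is the population that grew out of HCC4006 under rising erlotinib over months. Both were cultured for 48 hours in medium with 10% FBS and no further treatment, and RNA from 3 preparations of each was mixed and put on 1 Affymetrix HG-U133 array. Each cell line therefore has a single value per probe set, a MAS5 signal in arbitrary units, so no difference below has a replicate check and no p-value was computed.

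The labels were only partly borne out by the arrays. ZEB1, a repressor of epithelial genes, came to 42.5 for the array labelled HCC4006 and 53.1 for that labelled HCC4006ER, under the background level of both. E-cadherin (CDH1, 10469 and 11041) and ERBB3 (1198 and 1305) were nearly level. N-cadherin (CDH2) was 2.05-fold, fibronectin (FN1) 1.66-fold and vimentin (VIM) 1.53-fold higher on the array labelled HCC4006ER, and EPCAM read 11129 and 11642. The study's paper reports from its microarray a strong rise of ZEB1 and a loss of E-cadherin and ERBB3 mRNA in HCC4006ER. The values here do not show these changes, and the cause of the difference was not tested. For this reason the arrays are named by their labels throughout, and the folds below may not stand for the contrast that the paper describes. All 8 epithelial carcinoma markers examined were above background on both arrays, against 3 and 2 of 15 fibroblast markers, 1 and 1 of 10 endothelial markers and 2 and 1 of 7 leukocyte markers, with the array labelled HCC4006 first. The background level was set from 127 probe sets of smell and bitter taste receptors, as their 95th percentile, and came to 96.2 for the array labelled HCC4006 and 91.6 for that labelled HCC4006ER. In what follows, higher and lower describe the array labelled HCC4006ER relative to the array labelled HCC4006, and a log2 fold below 0 is lower. Where 2 signals are given for a gene, that of the array labelled HCC4006 comes first. Where the dimmer signal was under background it was raised to that level, and the fold is then a lower limit, written as at least. Signals of different genes are not compared with each other, since every probe set binds with its own strength. In a bulk extract, fewer cells expressing a gene and less RNA per cell cannot be told apart.

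Ephrins are held on the cell surface, the A type by a lipid anchor and the B type by a transmembrane segment, and they bind Eph receptor tyrosine kinases on a neighbouring cell, with signals running into both cells. Class 3 semaphorins are secreted and act through a neuropilin that recruits a plexin, whereas most membrane-bound semaphorins bind plexins directly. SLITs are secreted repellents that bind ROBO receptors. All were first known from growing axons, and in epithelia and carcinomas they affect cell sorting, adhesion, migration and vessel growth.

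The promoters of the 4 members that were lower past 2-fold with a promoter entry are given here, because transcription factors of EMT such as ZEB1 and the SNAI proteins bind an E-box, which can be looked for in them. The windows run from 250 bases before to 50 bases after the start site in RefSeq (GRCh38.p14), are written 5′ to 3′ along the gene, and carry the E-box, CACCTG or its reverse complement CAGGTG, in capitals.
EFNA4, chr1:155063490-155063789, plus strand: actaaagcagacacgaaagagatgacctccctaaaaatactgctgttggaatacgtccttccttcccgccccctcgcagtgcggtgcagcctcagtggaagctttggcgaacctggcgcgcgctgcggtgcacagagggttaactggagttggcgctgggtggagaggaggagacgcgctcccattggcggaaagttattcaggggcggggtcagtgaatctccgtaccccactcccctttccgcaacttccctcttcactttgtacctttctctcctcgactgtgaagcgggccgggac
SEMA3F, chr3:50154808-50155107, plus strand: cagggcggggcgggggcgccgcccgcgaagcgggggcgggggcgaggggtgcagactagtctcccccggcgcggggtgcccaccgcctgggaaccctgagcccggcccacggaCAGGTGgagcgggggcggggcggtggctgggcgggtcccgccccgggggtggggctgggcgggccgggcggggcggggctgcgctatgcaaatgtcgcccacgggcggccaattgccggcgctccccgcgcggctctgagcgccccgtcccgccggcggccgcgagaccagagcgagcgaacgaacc
EPHA1, chr7:143408807-143409106, minus strand: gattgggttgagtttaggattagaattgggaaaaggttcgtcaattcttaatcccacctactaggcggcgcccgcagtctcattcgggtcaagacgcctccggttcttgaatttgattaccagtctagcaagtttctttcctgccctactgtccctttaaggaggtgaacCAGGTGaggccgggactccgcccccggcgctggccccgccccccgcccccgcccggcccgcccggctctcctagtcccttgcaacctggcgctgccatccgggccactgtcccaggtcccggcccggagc
SEMA4F, chr2:74653997-74654296, plus strand: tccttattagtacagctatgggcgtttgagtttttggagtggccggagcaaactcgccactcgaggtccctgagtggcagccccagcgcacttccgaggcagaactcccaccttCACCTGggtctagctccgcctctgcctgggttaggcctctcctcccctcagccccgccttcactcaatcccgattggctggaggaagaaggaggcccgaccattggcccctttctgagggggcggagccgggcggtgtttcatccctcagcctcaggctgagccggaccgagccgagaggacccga

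The EFNA4 window holds no E-box. The SEMA3F, EPHA1 and SEMA4F windows hold 1 each, starting at positions -137, -80 and -136 with the start site as 0. RefSeq entries matched 53 of the 59 members, all but EFNB3, EPHA10, NRP1, SEMA3A, SEMA6A and SEMA6B. An E-box was found in 9 of the 53 (17.0%), against 20.6% of all 27305 promoters of this length. It was found in 3 of the 11 members that were lower past 1.5-fold, in 1 of the 21 above background but not past it (EFNB2), and not in SLIT2, the single higher member. Among the members under background on both arrays, 5 of 20 windows (25.0%) held it, close to the 27.3% of the lower members. The GC box, GGGCGG on either strand, was in 42 of the 53 windows (79.2%) and in 44.6% of all promoters. The windows of the members had a median GC content of 65.7% against 58.3%. The set of all promoters was not limited to the genes measured here, so it is not matched to the members. The motif hits are matches of letters only, and no binding at these promoters was measured.

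Guidance genes were mostly level or lower on the array labelled HCC4006ER. Of the 59 members, 37 were above background on at least 1 array and 22 on neither. Past 1.5-fold, the threshold named in the study's methods, 12 of the 37 were lower and 1 was higher. The share of all 11896 genes above background that was lower past 1.5-fold was 11.2%, and the share that was higher was 7.99%, while the members' shares were 32.4% and 2.70%. At 2-fold, 5 members were lower (EFNB3, EFNA4, SEMA3F, EPHA1 and SEMA4F) and none was higher, against 3.56% and 2.38% of all genes. The median log2 fold was -0.31 over the 37 members and -0.04 over all genes above background. Of the 24 members not past 1.5-fold, 20 had both signals above background and 4 (EFNB1, ROBO3, SLIT3 and SEMA3E) had only a lower limit below 1.5-fold, so a larger fold is possible for them. These counts depend on how the arrays are put on 1 scale. Scaling both to the same median, which adds 0.14 to every log2 fold, gave 7 members lower and 4 higher (SLIT2, PLXND1, SEMA7A and EPHB4), with 7.40% of all genes lower and 12.4% higher. The members still lower were EFNB3, EFNA4, SEMA3F, EPHA1, SEMA4F, NRP2 and PLXNA2.

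**Figure D1:**
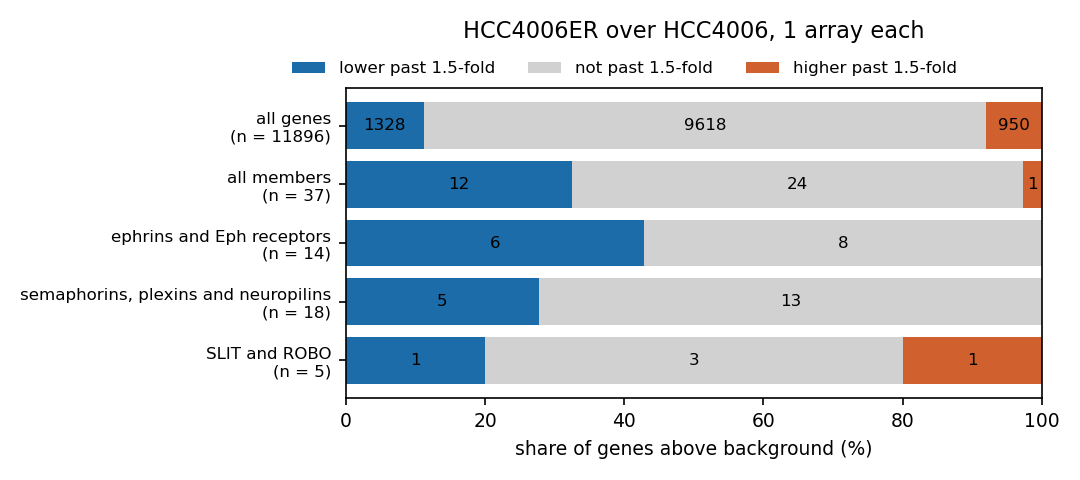
Share in percent of the genes above background that were lower, higher or not past 1.5-fold on the array labelled HCC4006ER relative to the array labelled HCC4006, with the number of genes written in each bar. The bars of the members show 12 lower and 1 higher of 37, and that of all genes 1328 lower and 950 higher of 11896.

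Among the ephrin ligands, 3 of 7 above background were lower past 1.5-fold and none was higher, against 11.2% and 7.99% of all genes. EFNB3, a transmembrane ligand known as a repellent at the spinal cord midline, read 275 and 47.7, the latter under background. It was at least 3.0-fold lower, a log2 fold of -1.58 or below with its dim signal raised to background. The measured signals gave -2.52, which rests on a signal under background. With the 99th percentile as background, which raises the dim signal further, the log2 fold was -0.75 or below. The mean over its probe sets above background, both of them lower limits, was -0.90. Its other probe set was dim, at 106 and 65.4, and was lower by at least 0.21 on the log2 scale. EFNA4, a lipid-anchored ligand that binds several EphA receptors, had signals of 581 and 211, a 2.76-fold difference from 1 probe set. EFNA1, the ligand that EPHA2 is best known to bind and a gene first found as induced by TNF, stood at 1433 against 885 and was 1.62-fold lower. Both of these ligands were well above background on each array. The remaining A-type ligands differed less, EFNA5 with 709 and 548 (1.29-fold lower, with 3 of 3 probe sets above background lower) and EFNA2 with 104 and 140 (1.35-fold higher). EFNB2, the ligand of EPHB4 on arterial vessels, read 2284 and 1737 and was 1.32-fold lower. EFNB1 was barely above background at 101 on the array labelled HCC4006 and under it at 51.4 on the other. EFNA3 was under background on both, although it lies between EFNA4 and EFNA1 on chromosome 1 with 1 protein-coding gene between it and EFNA4 and none between it and EFNA1.

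**Figure D2:**
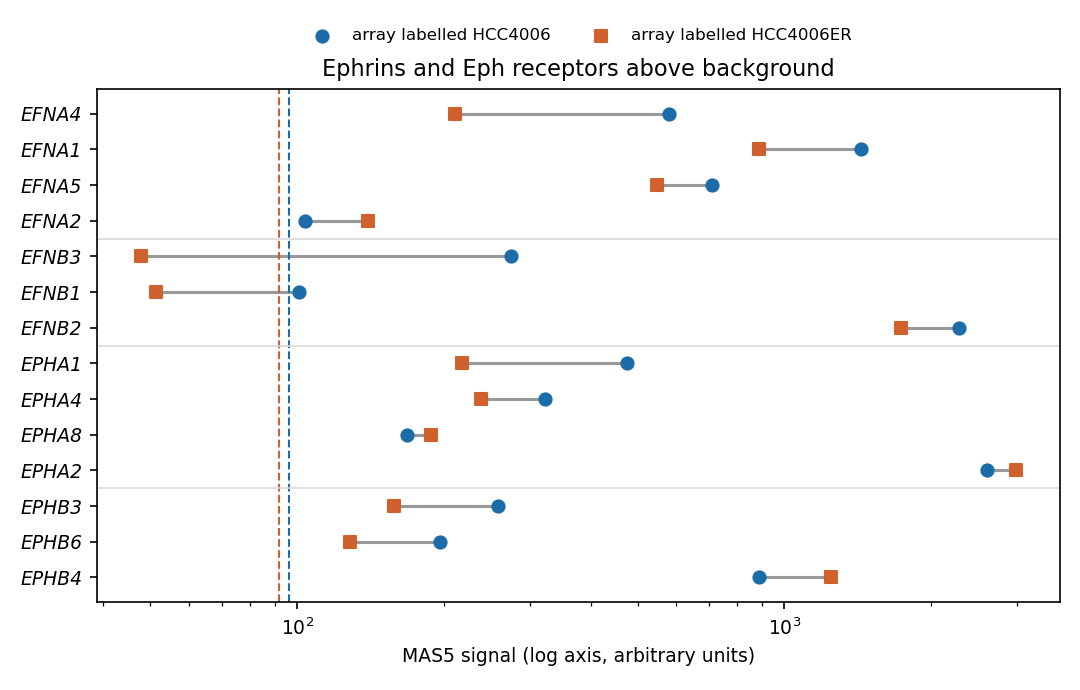
MAS5 signal on a log axis of the 14 ephrins and Eph receptors above background, with circles for the array labelled HCC4006, squares for the array labelled HCC4006ER and dashed lines for each array's background level (96.2 and 91.6). The square lies left of the circle for 10 genes, and EFNB3 and EFNB1 end under background.

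Past 1.5-fold, 3 of the 7 Eph receptors above background were lower and none was higher, against 11.2% and 7.99% of all genes. EPHA1, the first Eph receptor to be found and one expressed in epithelia, read 474 and 218 and was 2.17-fold lower, although the mean over all its probe sets, a log2 fold of -0.52, was not past 1.5-fold. Its other probe sets, at 79.8 and 56.0 and at 11.0 and 11.6, were under background. EPHB3, a receptor that keeps intestinal epithelial cells in their compartments, read 258 and 158 and was 1.64-fold lower, and its other probe set went from 256 to 83.9, at least 2.80-fold. EPHB6, an Eph receptor without kinase activity, read 196 and 128 and was 1.53-fold lower, just past the threshold. It missed the threshold with median scaling (log2 fold of -0.48) and quantile normalization (-0.56). With the 99th percentile as background its dimmer signal was raised, and the limit of -0.27 or below was also not past the threshold. In the other direction, EPHA2, an epithelial receptor that is often abundant in carcinomas, was level at 2602 and 2987 (1.15-fold higher). EPHB4, the receptor of EFNB2, was 1.4-fold higher at 889 and 1247, but its other probe set, at 161 and 116, was lower by 0.48 on the log2 scale. EPHA4, which binds both types of ephrin, was 1.35-fold lower by its brightest probe set, at 322 and 238. Of its 4 probe sets above background, 2 were lower and 2 higher. EPHA8 read 168 and 188. In this family of ligands and receptors together, 6 of the 14 above background were lower (42.9%) and the median log2 fold was -0.42. Once the 2 arrays had been brought to 1 median, the family's median log2 fold was -0.28, 3 were lower and 1, EPHB4, was higher. Of all genes, 7.40% were then lower and 12.4% higher.

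Among the class 3 semaphorins, which are secreted, SEMA3F alone was lower past 1.5-fold. It signals through NRP2 and lies on the short arm of chromosome 3, in a region often lost in lung cancer. It read 973 and 366, a 2.66-fold difference. A dimmer probe set read 101 and 33.8, and another, under background on both arrays, 72.9 and 10.7. SEMA3B, 3 protein-coding genes away on the same chromosome, was under background on both arrays (8.41 and 4.61). The other class 3 ligands above background leaned the other way without passing 1.5-fold. SEMA3A, the NRP1 ligand that collapses growth cones, read 652 and 790 (1.21-fold higher), and its other probe set above background read 135 and 165. SEMA3C, which binds both neuropilins, read 2348 and 2620 (1.12-fold higher) and 303 and 394 by its other probe set. SEMA3E, which binds PLXND1 without a neuropilin, was near background at 85.0 and 104. SEMA3E, SEMA3A and SEMA3D are direct neighbours among the coding genes of chromosome 7, and SEMA3D was under background on both arrays.

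Of the 7 membrane-bound semaphorins above background, 2 were lower past 1.5-fold, against 11.2% of all genes. SEMA4F read 352 and 166 (2.12-fold lower). All 3 of its probe sets were lower, the others at 230 and 109 and at 144 and 102, but each may bind several transcripts. SEMA4C, a ligand of PLXNB2, read 1929 and 1247 (1.55-fold lower) and 766 and 509 by its other probe set. SEMA4B was 1.46-fold lower at 1970 and 1353, just short of the threshold. SEMA6B (200 and 159) and SEMA5B (273 and 260) differed less. On the higher side, SEMA7A, which is lipid-anchored and acts on integrins and PLXNC1, read 2040 and 2902 (1.42-fold), while its dim probe set was level at 125 and 130. SEMA4D, the ligand of PLXNB1 that is also known from leukocytes, read 224 and 276 (1.23-fold).

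**Figure D3:**
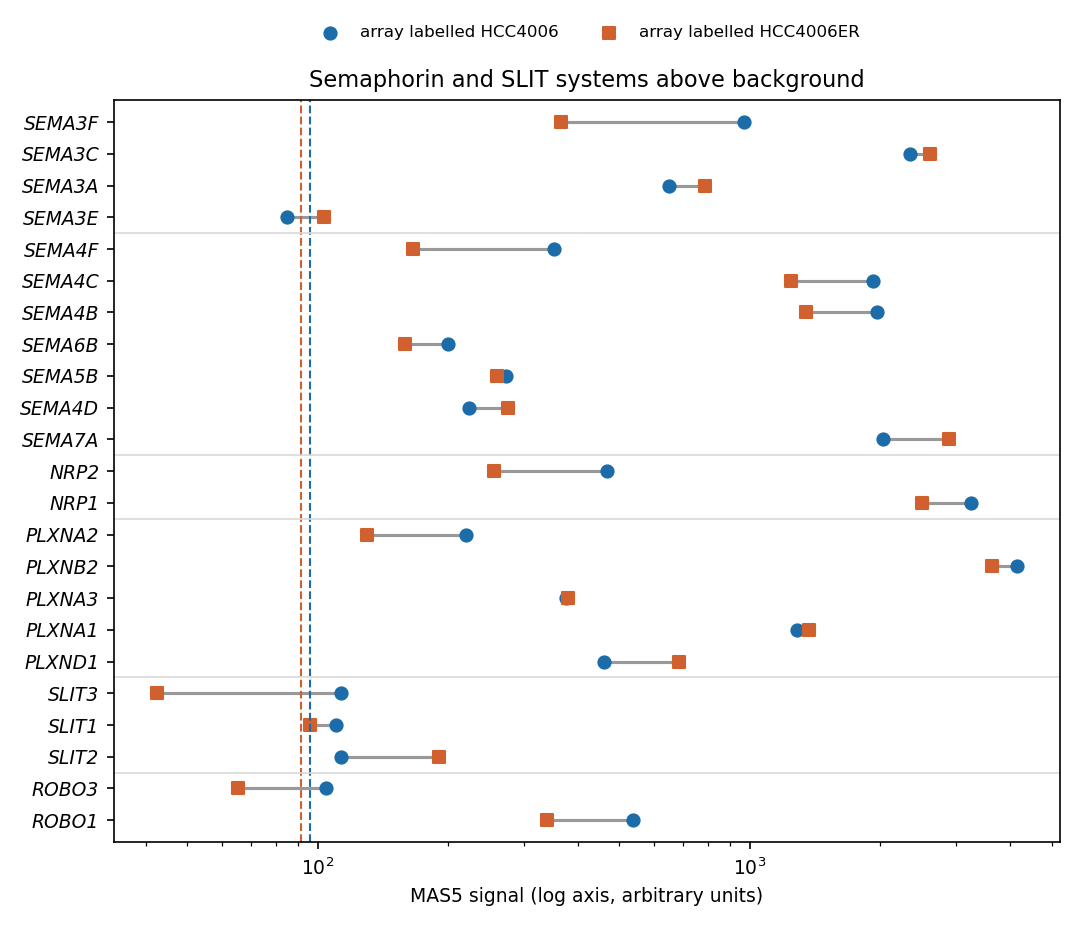
MAS5 signal on a log axis of the 18 semaphorins, neuropilins and plexins and the 5 SLIT and ROBO genes above background, with circles for the array labelled HCC4006, squares for the array labelled HCC4006ER and dashed lines for each array's background level. Long bars to the left mark SLIT3, which ends under background, and SEMA3F, SEMA4F, NRP2 and PLXNA2, whereas SEMA3C, PLXNA3 and PLXNA1 are nearly level.

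The neuropilins, co-receptors shared by class 3 semaphorins and VEGF, had 1 of 2 lower past 1.5-fold. NRP2 read 469 and 256 (1.83-fold lower). It had 11 probe sets, and the 7 above background were all lower, with log2 folds from -0.68 to -1.05. NRP1 read 3258 and 2500 (1.30-fold lower) by its brightest probe set, whereas its second was level at 820 and 822. Among the plexins, PLXNA2, a partner of neuropilins, was 1.69-fold lower (220 and 130), and its other 2 probe sets were under background. With the 99th percentile as background its dimmer signal was raised, and its log2 fold was -0.43 or below. That limit is short of 1.5-fold, but a larger fold is possible. PLXNB2, the receptor of SEMA4C, read 4154 and 3639 (1.14-fold lower). PLXNA3 (376 and 380) and PLXNA1 (1291 and 1372) were level, but the second PLXNA1 probe set, at 480 and 328, was lower by 0.55 on the log2 scale. PLXND1, the vascular receptor of SEMA3E, was 1.50-fold higher at 460 and 688, its log2 fold of 0.582 falling short of the threshold of 0.585. Its 2 other probe sets disagreed, with 159 and 114 for one and 13.8 and 112 for the other. Over the 18 semaphorins, plexins and neuropilins above background, 5 were lower (27.8%) and none was higher, against 11.2% and 7.99% of all genes. The median log2 fold of these 18 was -0.13. Median scaling, which shifts all genes alike, put it at 0.01, with the median of all genes above background at 0.10.

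SLIT2, a repellent of axons and of migrating leukocytes that is silenced in many lung cancers, was the single member higher past 1.5-fold. It read 114 and 191, a 1.68-fold difference close to background. The mean over its probe sets above background, a log2 fold of 0.55, was not past 1.5-fold. With the 99th percentile as background its dimmer signal was raised, and the lower limit of 0.43 was not past 1.5-fold either. A second probe set was above background only on the array labelled HCC4006ER (87.3 and 122), and the remaining one was under it on both (27.5 and 85.4). SLIT1 (111 and 96.1) and SLIT3 (114 and 42.5) were also near or under background. ROBO1, the main SLIT receptor outside the nervous system, read 537 and 340 and was 1.58-fold lower. ROBO3, a receptor of crossing axons, read 104 and 65.3. ROBO2, the neighbour of ROBO1 on chromosome 3, and ROBO4, the endothelial ROBO next to ROBO3 on chromosome 11, were under background on both arrays. Over the 5 SLIT and ROBO genes above background the median log2 fold was -0.20.

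The 22 members under background on both arrays were EFNA3, EPHA3, EPHA5, EPHA6, EPHA7, EPHA10, EPHB1, SEMA3B, SEMA3D, SEMA3G, SEMA4A, SEMA4G, SEMA5A, SEMA6A, SEMA6C, SEMA6D, PLXNA4, PLXNB1, PLXNB3, PLXNC1, ROBO2 and ROBO4. Their signals lay between 6.94 and 82.6 on the array labelled HCC4006 and between 4.61 and 82.5 on that labelled HCC4006ER, and no fold is given for them. Most are best known from neurons, and 4 of 10 neural markers examined were above background on both arrays, TUBB3, MAP2, SYT1 and SNAP25. MAP2 was 2.76-fold higher, at 147 and 407, while TUBB3 was level at 8212 and 8522. The summed signal of the neural markers was 8875 and 9444, most of it from TUBB3. The part of such genes in the members' values was not tested.

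Probe sets of the same gene gave a measure of the error within the arrays. Over the 5264 genes with more than 1 probe set above background on both arrays, log2 folds within a gene scattered with a pooled SD of 0.27, and over 14 members with an SD of 0.30. This SD covers differences between probe sets on the same pair of arrays and leaves out culture, RNA preparation and hybridization. The log2 folds of the 5 members lower past 2-fold are over 3 times this SD. This follows from the 2-fold threshold that picked them and adds no support to them. The value of EFNB3 is also a lower limit, whereas the SD comes from signals above background on both arrays. The log2 folds of EPHB6, SEMA4C, ROBO1 and EFNA1 lie from -0.61 to -0.69. Of the 13 members past 1.5-fold, 7 had more than 1 probe set above background. In all 7, every such probe set went in the direction of the brightest. The other 6 (EFNA4, EFNA1, EPHA1, EPHB6, PLXNA2 and ROBO1) rest on 1 probe set above background. The agreement among the 7 is partly fixed by the filter. A probe set above background on 1 array only is almost bound to be higher on that array. Only NRP2, SEMA4C and SEMA4F had more than 1 probe set above background on both arrays.

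**Figure D4:**
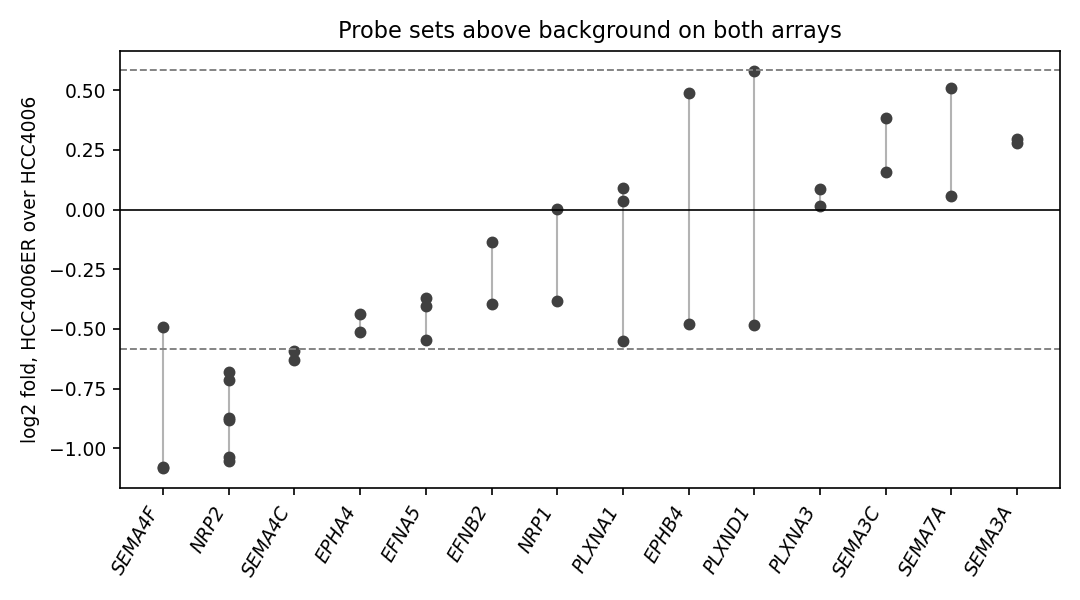
Log2 fold of the array labelled HCC4006ER over the array labelled HCC4006 for every probe set above background on both arrays, for the 14 members with more than 1, with dashed lines at 1.5-fold. The 6 NRP2 points all lie below the lower line, while EPHB4, PLXND1 and PLXNA1 have points on both sides of 0.

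Ligands and the receptors they are known to bind were set side by side for 13 pairs, of which 11 had both genes above background. Both were lower past 1.5-fold in 2 pairs, SEMA3F with NRP2 (log2 folds of -1.41 and -0.87) and EFNB3 with EPHB3 (-1.58 or below and -0.71). In 4 pairs only 1 gene was past the threshold. EFNA1 and EFNA4 were lower with EPHA2 level at 0.20, SEMA4C was lower (-0.63) with PLXNB2 at -0.19, and NRP2 was lower with SEMA3C at 0.16. SLIT2 and ROBO1 were past the threshold in opposite directions (0.75 and -0.66). Neither gene was past it in the remaining 4, EFNA5 with EPHA4, EFNB2 with EPHB4, SEMA3A with NRP1 and SEMA3E with PLXND1. The pairs are a chosen list that leaves out other receptors above background, among them EPHA1 (-1.12) and EPHA8 (0.17). The counts of pairs depend on that list. Genes recur among these pairs, so they are not independent, and no association was tested.

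**Figure D5:**
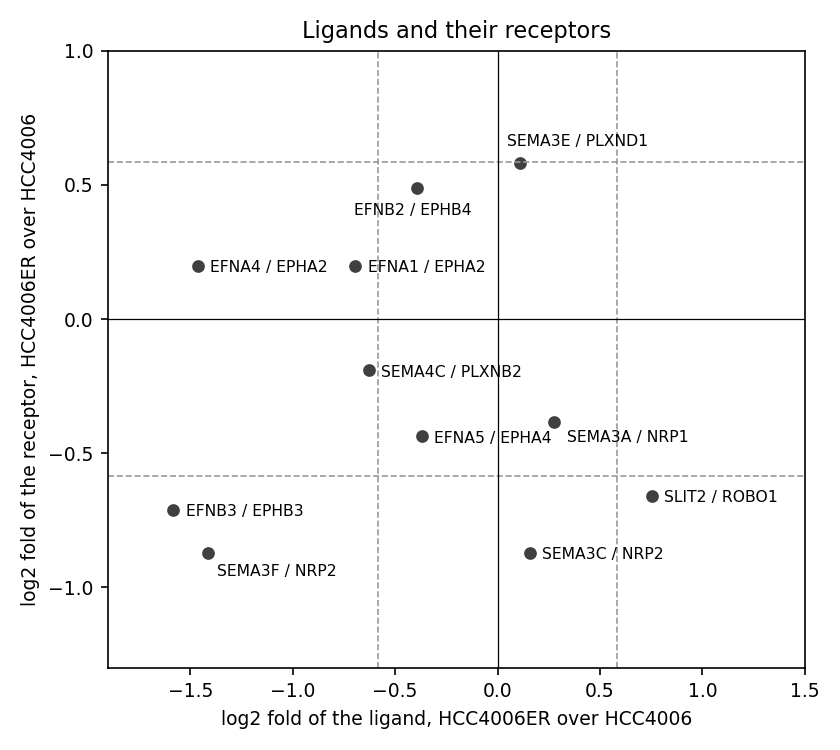
Log2 fold of each ligand against that of a receptor it binds, for the 11 pairs with both genes above background, with a dim signal raised to background and dashed lines at 1.5-fold. SEMA3F with NRP2 and EFNB3 with EPHB3 lie in the lower left corner, and SLIT2 with ROBO1 lies alone in the lower right.

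Genes that pass on signals of these receptors were past 1.5-fold in both directions, and most were not past it. Of all genes above background, 7.99% were higher and 11.2% lower past 1.5-fold, with a median log2 fold of -0.04. Of 23 Eph and ephrin signalling partners above background, 4 were higher (17.4%) and 1 was lower (4.35%), with a median of -0.09. RGS3, which ties B-type ephrins to G protein signalling, was 2.22-fold lower (815 and 367). The kinases ABL2 (957 and 1779, 1.86-fold) and FYN (990 and 1567, 1.58-fold) and the Rac regulator CHN1 (412 and 742, 1.80-fold), which acts below EPHA4, were among those higher. Of 24 plexin and neuropilin partners above background, 4 were higher (16.7%) and 2 lower (8.33%), with a median of -0.03. L1CAM, an adhesion molecule that joins NRP1 in the response to SEMA3A, read 405 and 3190 and was 7.87-fold higher. The collapsin response mediators, which act below SEMA3A, went both ways, DPYSL3 being 4.78-fold lower (698 and 146) and DPYSL2 2.45-fold higher (547 and 1343). MICAL3, of a family of actin-oxidizing enzymes below plexins, was 1.90-fold higher (482 and 916). None of the 13 SLIT and ROBO partners above background was past 1.5-fold, and their median was -0.07.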

How the data were processed

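The signal intensity of each probe set was deposited by the authors on a linear scale, from MAS5, with GCOS 1.4 also named in the submitters' processing notes. The trimmed mean without 2% at each end was 500.06 on both arrays, and the median signal 63.4 on the array labelled HCC4006 and 57.7 on that labelled HCC4006ER. Of 54675 probe sets, 41097 had 1 gene symbol in the platform annotation, 1801 had several and 11777 were not listed. The members had 150 probe sets, and all 59 matched a RefSeq gene identifier (GRCh38.p14). The members, gene lists, pairs and motifs were chosen with earlier results of these data known. Every member above background was to be named with both signals, and from each signalling list the 4 genes with the largest fold past 1.5-fold. A signalling list is not reported here. Precision is limited by the number of arrays. The calculation was tested on simulated data with 2-fold changes in bright genes and less noise than the probe set SD. Smaller changes and changes in dim genes were not covered. Alternatives were other probe set rules, scalings, background rules and thresholds. The software was Python 3.11.15, numpy 2.4.6, pandas 2.3.3 and matplotlib 3.10.9.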

Additional observations from a re-analysis of the deposited data

How the results depend on the processing

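No member past 1.5-fold changed direction under the alternatives that gave it a fold, 9 of 10 for EFNA4, EFNB3, EPHA1, PLXNA2 and SEMA4F and 10 for the others. For EFNA4, EPHA1, PLXNA2 and SEMA4F, every probe set above background may bind several transcripts, so leaving such probe sets out gave no fold. EFNB3 had no fold where both signals had to be above background. NRP2 and SEMA3F passed 1.5-fold under all 10. The calls of EFNA1, EPHB3, EPHB6, ROBO1 and SEMA4C were lost with median scaling. Those of EPHA1, PLXNA2 and SLIT2 held with median scaling and were lost under other alternatives, as given above. No paired analysis was possible because each cell line had 1 array.

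Counts of members higher were 3 with the mean over all probe sets, 0 with the mean over probe sets above background, 4 with median scaling, 2 with quantile normalization, 5 of 59 with all genes by the measured ratio, 0 with the 99th percentile as background and 0 at 2-fold, against 1. Counts lower were 7 with median scaling, 21 of 59 with all genes and 5 at 2-fold, against 12, and elsewhere from 8 of 29 without probe sets that may bind several transcripts to 16 with the mean over all probe sets. The shares of all genes higher and lower were 10.1% and 14.7% with the mean over all probe sets. They were 7.38% and 10.4% with the mean over probe sets above background, and 8.26% and 10.7% with quantile normalization. Without probe sets that may bind several transcripts they were 8.75% and 11.1%, and by the measured ratio 9.27% and 13.3%. With all genes they were 13.0% and 23.0%, and with the 99th percentile 7.80% and 9.53%. Of the ephrins and Eph receptors, 3 were lower with median scaling, 10 of 21 with all genes and 3 at 2-fold, against 6. In this family 1 was higher with the mean over all probe sets, with median scaling and with all genes, against 0. For semaphorins, plexins and neuropilins, 3 of 12 were lower without probe sets that may bind several transcripts, 8 of 31 with all genes and 2 at 2-fold, against 5. In this family 1 was higher with the mean over all probe sets, 2 with median scaling, 1 with quantile normalization and 1 with all genes, against 0. For SLIT and ROBO genes, 2 were lower with the mean over all probe sets, 0 with median scaling and 3 by the measured ratio, against 1. With all genes 3 of 7 were lower, and at 2-fold 0. Of these genes 0 were higher with the mean over probe sets above background, with the 99th percentile and at 2-fold, and 3 with all genes, against 1. The SLIT and ROBO median was -0.66 by the measured ratio, against -0.20. The cause was not tested, beyond the genes and signals each alternative adds or removes. Other medians stayed within the probe set SD of 0.27. Genes near background are limited by their low signal, and values by the single array.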

Other observations

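The netrin and RGM system, a further set of guidance cues, had 7 of 16 genes above background. Of these 7, 2 were lower past 1.5-fold, none was higher and the median log2 fold was -0.12. Among all genes above background, 11.2% were lower and 7.99% higher, with a median of -0.04. With so few genes, 2 lower is a small count. NTNG1, a lipid-anchored netrin relative, read 215 and 96.5 (2.23-fold lower, with the array labelled HCC4006 first). NEO1, a receptor of netrins and RGM proteins, read 879 and 500 (1.76-fold lower), while NTN4 (1941 and 2079) and RGMB (909 and 971) were level.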
